A study of Mus musculus with 8 samples.

Results

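From the BCL-2 family, which sets whether a lymphocyte survives or dies through its mitochondria, 10 genes were followed in T follicular helper (Tfh) cells, a CD4+ T cell type that supports germinal centre B cells. They are the survival genes Bcl2, Bcl2l1 and Mcl1, the effectors Bax and Bak1, and the BH3-only genes Bcl2l11, Bid, Bad, Bbc3 and Pmaip1, picked by gene symbol from the deposited count tables. All 10 of 10 were present in the tables of both experiments, among 16735 genes common to them, and all 10 were among the 14418 genes kept for testing.

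Bulk RNA-seq covered 8 libraries in 4 groups of 2: Tfh cells from Peyer's patch, lymphoid follicles in the wall of the small intestine, sorted as ZsGreen+ or ZsGreen−, and Tfh cells from spleen sorted the same way. All 4 groups came from K/BxN mice, which develop autoimmune arthritis without immunization, and all carried a Th17 fate-mapping reporter, in which ZsGreen stays on in cells that once were Th17 cells. The sort gate was CD4+, TCRβ+, CD25−, CXCR5+ and PD-1+, split on ZsGreen, and the stated purpose was to find signature genes of the Th17-derived Tfh cells. Each group had 1 library in experiment 1 and 1 in experiment 2, and nothing in the labels says that these came from separate animals, so p-values measure the spread between these libraries, which may be technical. The labels give no Cre driver, age or sex and do not say how many mice were pooled. ZsGreen− cells may include some whose reporter did not recombine.

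The BCL-2 family acts at the outer membrane of mitochondria. The effectors BAX and BAK form pores that release cytochrome c and start the caspase cascade, and the survival proteins BCL-2, BCL-XL (from Bcl2l1) and MCL-1 hold them back. BH3-only proteins sense stress, lost growth factor signals or DNA damage and either occupy the survival proteins or activate the effectors. In T cells BIM, from Bcl2l11, drives much of the death that follows an immune response, and BCL-2 and MCL-1 keep resting and activated cells alive.

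Libraries held 10009823 to 15323743 estimated counts, 2.7% to 6% of them from mitochondrial genes. Cd4, Cxcr5 and Pdcd1, whose proteins were part of the sort gate, and the further markers Cd3e and Bcl6 were present in every library. The 11 Tfh markers summed to 3759 to 7675 CPM (counts relative to library size, scaled by TMM, edgeR's correction for library composition). B cell markers reached 63.1 and 36.3 CPM in the Peyer's patch ZsGreen+ and ZsGreen− libraries of experiment 1, most of it Pax5, against at most 4.99 CPM in the other 6 libraries. The libraries stood apart mainly by experiment: the first principal component held 66.4% of the variance, and every comparison was made with a term for the experiment. In bulk RNA, fewer cells of a type and less RNA per cell cannot be told apart.

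Levels are compared between genes as CPM per kb of exon, averaged over the 4 libraries of an experiment, with the range. In experiment 1 Mcl1 stood at 122 CPM per kb (100.5 to 143), Bax at 69.6 (57.0 to 74.6) and Bak1 at 38.3 (33.5 to 43.3), with no overlap between these ranges. Below them came Pmaip1 at 10.9 CPM per kb, Bcl2l11 at 9.71, Bcl2 at 8.89, Bad at 8.25, Bcl2l1 at 6.29, Bbc3 at 5.89 and Bid at 2.98. The neighbours in this lower order overlapped in range, apart from Bbc3 and Bid. In experiment 2 Bax led at 154 CPM per kb (125 to 170.4), overlapping Mcl1 at 129 (90.0 to 164). Pmaip1 followed at 25.5 CPM per kb (4.91 to 53.4) and Bad at 20.3 (18.6 to 22.4), which overlapped. Bcl2 at 7.87, Bbc3 at 7.66, Bcl2l1 at 7.01, Bid at 6.86 and Bcl2l11 at 4.17 overlapped one another, and Bak1 was at the bottom with 0.45 CPM per kb (0.285 to 0.654). Of the 3 survival genes followed here, Mcl1 was the most abundant per length in both experiments, and the order among the death genes differed between the experiments.

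**Figure D1:**
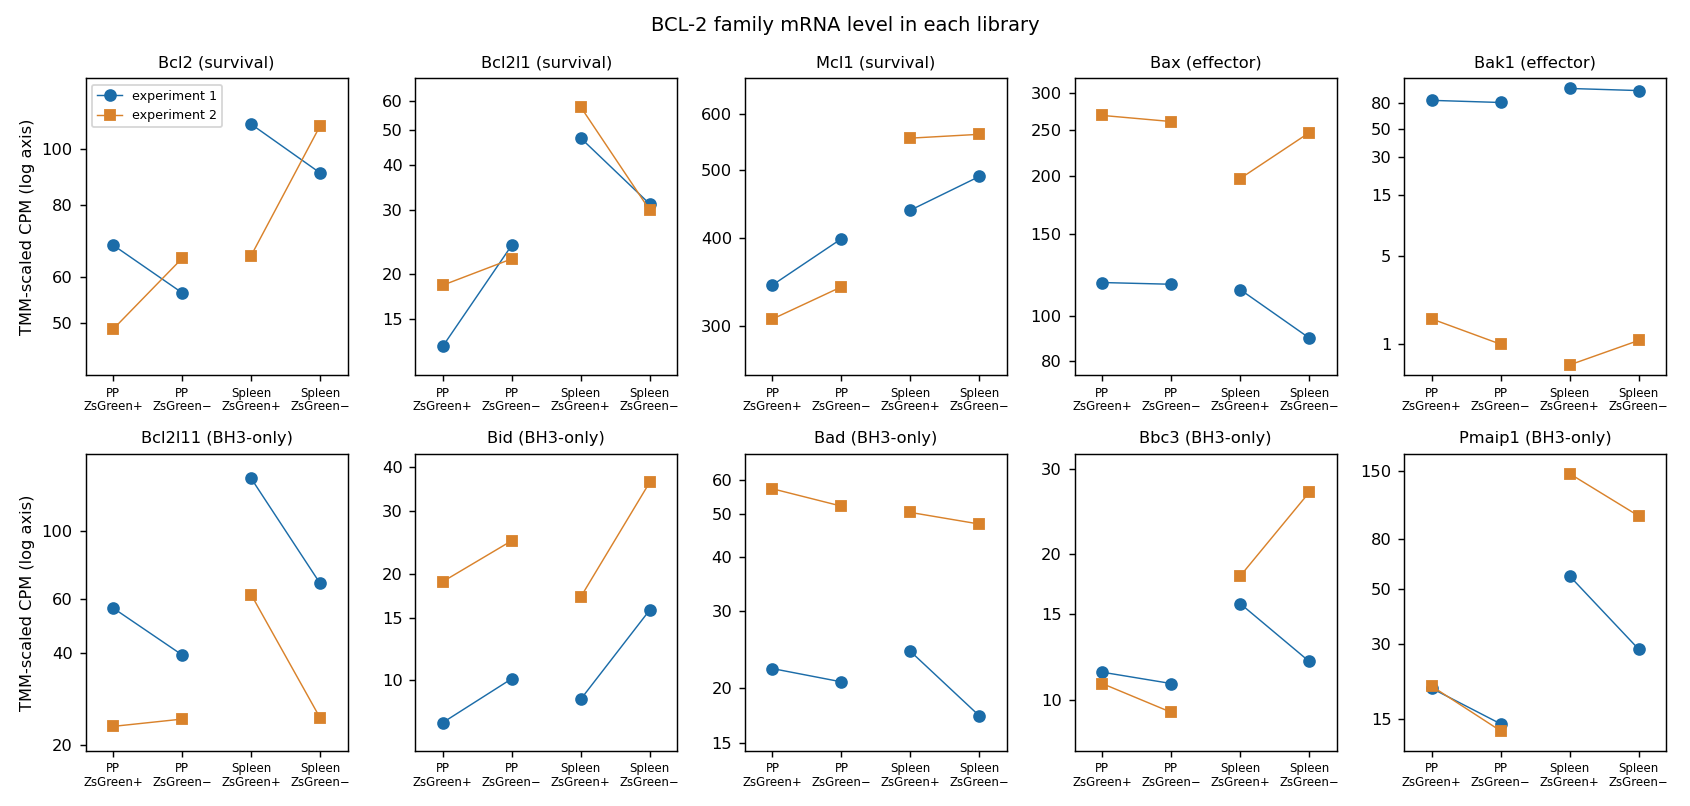
Each panel shows 1 gene, with CPM on a log axis of its own range and each point 1 library (circles experiment 1, squares experiment 2; lines join the ZsGreen+ and ZsGreen− libraries of a tissue and experiment; PP, Peyer's patch). Bcl2l11 and Bcl2l1 stand highest in spleen ZsGreen+ cells in both experiments, and Bak1 falls near 1 CPM in all 4 libraries of experiment 2.

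In spleen, Bcl2l11 and Bcl2l1 rose and Bid fell in ZsGreen+ relative to ZsGreen− cells. The promoter windows of these 3 genes are shown because their transcripts moved between the same sorts, Bcl2l11 and Bcl2l1 together and Bid the other way. They are RefSeq sequences of build GRCm38.p6, from 250 bases before to 50 bases after the most upstream listed start, read 5′ to 3′ on the gene's strand. The windows are chr2:128125788-128126087 on the plus strand for Bcl2l11, chr2:152831679-152831978 on the minus strand for Bcl2l1 and chr6:120916775-120917074 on the minus strand for Bid, with 2, 3 and 1 starts listed. Capitals mark matches, on either strand, to the FOXO core TGTTTAC, the STAT element TTCNNNGAA, the GC box GGGCGG, the CCAAT box or the TATA box TATAAA.
Bcl2l11: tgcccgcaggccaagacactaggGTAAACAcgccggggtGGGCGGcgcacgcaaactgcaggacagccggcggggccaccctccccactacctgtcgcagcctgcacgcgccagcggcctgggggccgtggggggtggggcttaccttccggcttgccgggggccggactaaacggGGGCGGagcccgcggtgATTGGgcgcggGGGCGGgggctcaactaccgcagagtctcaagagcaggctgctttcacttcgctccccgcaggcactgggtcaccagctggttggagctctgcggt
Bcl2l1: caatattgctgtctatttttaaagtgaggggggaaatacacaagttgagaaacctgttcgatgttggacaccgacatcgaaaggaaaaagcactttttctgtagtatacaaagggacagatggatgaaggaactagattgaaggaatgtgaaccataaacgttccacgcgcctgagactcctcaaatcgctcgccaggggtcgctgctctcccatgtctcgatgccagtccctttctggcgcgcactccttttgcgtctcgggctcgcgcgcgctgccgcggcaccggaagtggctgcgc
Bid: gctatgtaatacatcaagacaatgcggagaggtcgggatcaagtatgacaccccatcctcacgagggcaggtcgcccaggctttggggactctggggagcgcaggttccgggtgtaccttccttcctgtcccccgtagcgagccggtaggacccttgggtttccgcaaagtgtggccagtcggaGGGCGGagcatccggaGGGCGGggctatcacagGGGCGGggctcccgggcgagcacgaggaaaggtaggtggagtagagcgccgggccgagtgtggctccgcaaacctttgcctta
The Bcl2l11 window holds 1 FOXO core (227 bases before the start), 3 GC boxes and 1 CCAAT box, none of which overlap, and 71.0% of its bases are G or C. Bid has 3 GC boxes at 63.3% G or C, and the Bcl2l1 window has no match to any of the 5 motifs at 52.3% G or C. Over the 32851 mouse promoter windows of the same length, 3.65% hold the FOXO core, 8.3% the STAT element, 35.7% the GC box, 37.4% the CCAAT box and 13.6% the TATA box, and the median G or C content is 52.7%. Such matches describe the letters of the window and are not evidence that a factor binds there.

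Bcl2l11 encodes BIM, the BH3-only activator of BAX and BAK, and lies at chr2:127967958-128004467 on the plus strand (ENSMUSG00000027381; mm39, as are all gene positions from the files). It had 149 and 62.1 CPM in spleen ZsGreen+ cells of experiments 1 and 2, against 67.5 and 24.5 CPM in spleen ZsGreen− cells. The ZsGreen+ library was the higher in each experiment, although the groups overlapped across experiments because both libraries of experiment 1 lay above those of experiment 2. The fitted log2 fold change was 1.22 ± 0.17 (SE; edgeR quasi-likelihood test, adjusted p = 0.00156), with log2 differences of 1.14 in experiment 1 and 1.34 in experiment 2. Leaving out any of the 8 libraries kept the call, with adjusted p of at most 0.0214.

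Bcl2l1 encodes BCL-XL, which holds BAX, BAK and BIM in check (chr2:152622588-152673648, minus strand, ENSMUSG00000007659). Spleen ZsGreen+ cells had 47.5 and 57.9 CPM, and spleen ZsGreen− cells had 31.2 and 30 CPM. Both ZsGreen+ libraries lay above both ZsGreen− libraries, without overlap. The log2 fold change was 0.76 ± 0.18 (SE, adjusted p = 0.0242), and the log2 differences were 0.60 in experiment 1 and 0.94 in experiment 2. The call was lost without spleen ZsGreen+ replicate 1 (adjusted p = 0.0935) or replicate 2 (0.185), and without spleen ZsGreen− replicate 2 (0.225), and it held in the other 5 fits that left out a library.

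Bid encodes a BH3-only protein that links death receptors to mitochondria once caspase-8 has cut it (chr6:120868891-120893814, minus strand, ENSMUSG00000004446). It had 8.84 and 17.2 CPM in spleen ZsGreen+ cells, against 15.8 and 36.3 CPM in spleen ZsGreen− cells. In each experiment the ZsGreen+ library was the lower, and the groups overlapped across experiments because Bid was higher throughout experiment 2. The log2 fold change was -0.96 ± 0.19 (SE, adjusted p = 0.0111), with -0.83 in experiment 1 and -1.07 in experiment 2. It was lost without spleen ZsGreen+ replicate 2 (adjusted p = 0.148), spleen ZsGreen− replicate 1 (0.0526) or spleen ZsGreen− replicate 2 (0.0775), and when libraries were not scaled for composition (0.0763). In GENCODE M21, 17.7% of the exon length of Bid overlaps Bcl2l13 on the opposite strand, and the library notes name a non-directional preparation without saying for which libraries, so reads there may belong to either gene. Bcl2l13 averaged 660.1 estimated counts, against 212 for Bid, and its own log2 fold change in spleen was 0.22 (adjusted p = 0.438).

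Of the 10 genes, 3 passed the threshold in spleen ZsGreen+ over ZsGreen− cells (2 up, 1 down), beside 8.62% of all genes tested (653 up, 590 down). Their median log2 fold change was -0.01 and that of all genes -0.03. Bcl2 had 110.3 and 65.3 CPM in ZsGreen+ cells, against 90.8 and 109.6 CPM in ZsGreen− cells, so the experiments differed in direction (log2 0.28 and -0.75; fitted -0.21 ± 0.25, adjusted p = 0.689). Mcl1, at 438 and 554 CPM against 489 and 561 CPM, and Bax, at 114 and 197 CPM against 89.8 and 247 CPM, had fitted log2 values of -0.08 and 0.02 (adjusted p = 0.838 and 0.967). The other 4 genes missed the threshold with fitted log2 values from -0.13 (Bbc3) to 0.73 (Pmaip1, SE 0.56). Pmaip1, the p53 target NOXA, passed only when libraries were not scaled (log2 0.92, adjusted p = 0.00304). Proliferation markers moved in the same comparison: 10 of 12 rose, and their summed CPM was 1968 and 2545 in ZsGreen+ libraries against 1003 and 973 in ZsGreen− libraries. Of the naive T cell markers 5 of 6 fell, of the regulatory T cell markers 5 of 6 fell and 1 rose, and of the Tfh markers 4 of 11 fell and none rose (Cxcr5, Sh2d1a, Cd3e and Tox2). Their part in the changes of Bcl2l11, Bcl2l1 and Bid was not tested.

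In Peyer's patch none of the 10 genes passed the threshold between ZsGreen+ and ZsGreen− cells in edgeR, and none in DESeq2, beside 0.437% of all genes tested. At an unadjusted p below 0.05 there was 1, Bcl2l1, beside 8.13% of all genes. It had 12.6 and 18.6 CPM in Peyer's patch ZsGreen+ cells, against 24.0 and 22.0 CPM in Peyer's patch ZsGreen− cells. Both ZsGreen+ libraries were below both ZsGreen− libraries, and the log2 fold change of -0.59 ± 0.19 (SE) had an unadjusted p of 0.00974 and an adjusted p of 0.374. Bcl2l11 had 56.1 and 23.0 CPM in ZsGreen+ cells, against 39.4 and 24.3 CPM in ZsGreen− cells (log2 0.23 ± 0.18, adjusted p = 0.813), with opposite directions in the experiments. Bid had 7.59 and 19.0 CPM in ZsGreen+ cells, against 10.1 and 24.8 CPM in ZsGreen− cells (log2 -0.40 ± 0.20, adjusted p = 0.658), lower in ZsGreen+ cells in both experiments. The remaining 7 ranged from a log2 value of -0.19 (Mcl1) to 0.50 (Pmaip1, SE 0.60). The proliferation markers had no call here, with 9 of 12 at an unadjusted p below 0.05. Of the regulatory T cell markers 2 of 6 fell, and of the naive T cell markers 1 of 6.

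Whether the ZsGreen sorts differed by tissue was tested as the effect in Peyer's patch minus that in spleen. None of the 10 genes passed in edgeR, beside 0.0971% of all genes tested, while 2 had an unadjusted p below 0.05, as did 8.48% of all genes, and DESeq2 called 1. For Bcl2l1 the difference of the log2 fold changes was -1.35 ± 0.26 (SE), with an adjusted p of 0.0991, and it was -1.52 in experiment 1 and -1.19 in experiment 2. In both experiments ZsGreen+ cells were therefore the lower sort for Bcl2l1 in Peyer's patch and the higher one in spleen. The difference for Bcl2l1 passed in DESeq2 (adjusted p = 0.00846), and in edgeR without library scaling (0.0387) or with no filter on low counts (0.0451). Those settings also called more of all genes: 141 of 16733, 113 of 14418 and 47 of 16733, against 14 of 14418 in the edgeR fit above. In the fits that left out a library, the difference for Bcl2l1 ran from -1.68 to -1.1. Bcl2l11 differed by -0.99 ± 0.25 (adjusted p = 0.184), and the other 8 genes lay between -0.23 (Pmaip1) and 0.56 (Bid, adjusted p = 0.646).

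**Figure D2:**
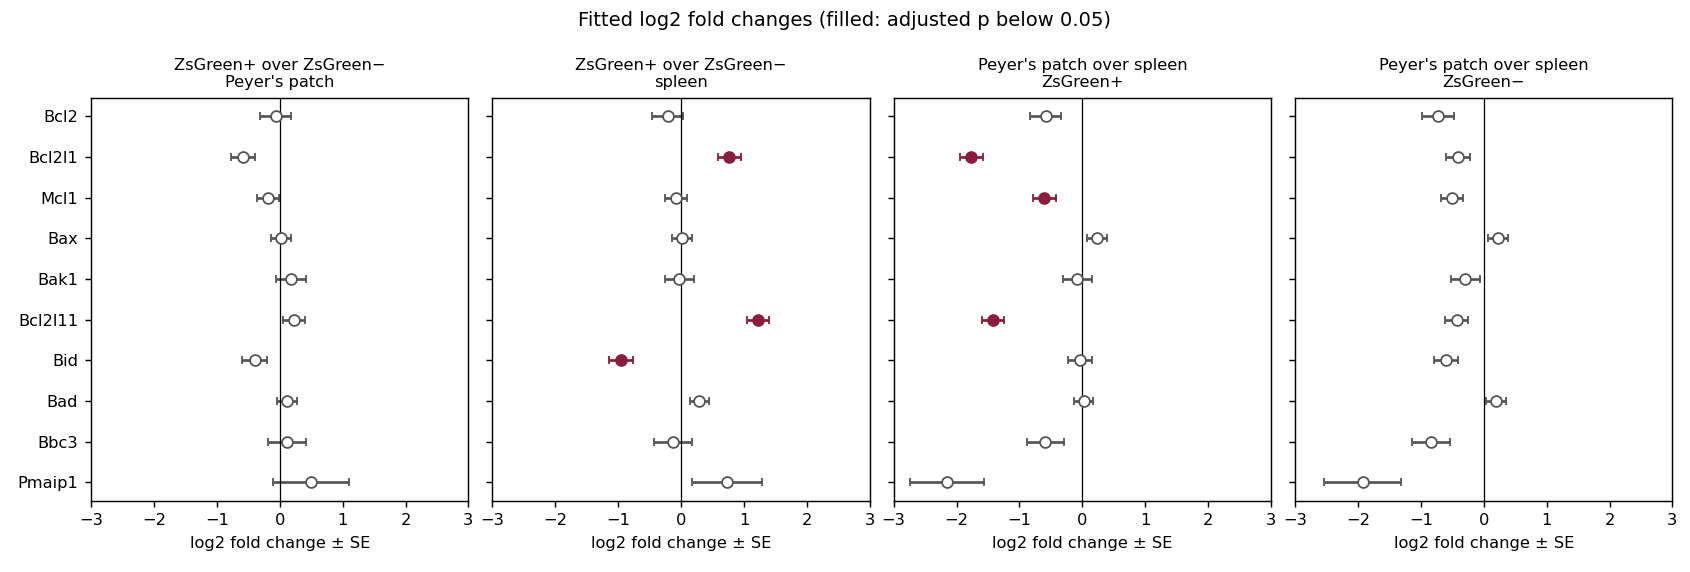
Fitted log2 fold changes with their standard errors for the 10 genes in 4 comparisons over all 8 libraries; filled points have an adjusted p below 0.05. Spleen ZsGreen+ over ZsGreen− has Bcl2l11 at 1.22, Bcl2l1 at 0.76 and Bid at -0.96, and Peyer's patch over spleen in ZsGreen+ cells has Bcl2l1 at -1.76, Bcl2l11 at -1.42 and Mcl1 at -0.60.

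Set against spleen ZsGreen+ cells, Peyer's patch ZsGreen+ cells had less Bcl2l1, Bcl2l11 and Mcl1. Bcl2l1 had 12.6 and 18.6 CPM in Peyer's patch and 47.5 and 57.9 CPM in spleen, with no overlap (log2 -1.76 ± 0.19, adjusted p = 0.00013; -1.90 and -1.63 in the 2 experiments). Bcl2l11 had 56.1 and 23.0 CPM in Peyer's patch and 149 and 62.1 CPM in spleen, lower in Peyer's patch in both experiments and without overlap (log2 -1.42 ± 0.17, adjusted p = 0.000276; -1.40 and -1.43). Both calls held in each of the 8 fits that left out a library, with adjusted p of at most 0.00182 for Bcl2l1 and 0.0042 for Bcl2l11.

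Mcl1, the short-lived survival protein's gene (chr3:95566099-95570487, plus strand, ENSMUSG00000038612), had 343 and 307 CPM in Peyer's patch ZsGreen+ cells, against 438 and 554 CPM in spleen ZsGreen+ cells. The groups did not overlap, and the log2 fold change was -0.60 ± 0.18 (adjusted p = 0.0443; -0.35 and -0.85). Its call held in 3 of the 8 fits that left out a library. It was lost without Peyer's patch ZsGreen+ replicate 1 (0.108) or 2 (0.225), Peyer's patch ZsGreen− replicate 1 (0.051) and spleen ZsGreen+ replicate 1 (0.0551) or 2 (0.382), and without library scaling (0.0769).

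Those 3 of 10, all down, stand beside 12.7% of all genes tested (794 up, 1034 down), and the median log2 fold change was -0.59 for the 10 genes and 0.02 for all genes. Pmaip1, the BH3-only gene NOXA that opposes MCL-1 (chr18:66591604-66598636, plus strand, ENSMUSG00000024521), had the lowest fitted value of the 10, with a wide error. It had 19.9 and 20.3 CPM in Peyer's patch ZsGreen+ cells, against 56.4 and 146 CPM in spleen ZsGreen+ cells. The groups did not overlap, but the spleen libraries differed widely, and the log2 value of -2.15 ± 0.59 had an adjusted p of 0.113 in edgeR. DESeq2 called it (adjusted p = 0.00631), as did edgeR without library scaling (6.54e-14). Bcl2 (chr1:106465908-106642004, minus strand, ENSMUSG00000057329) had 68.1 and 48.7 CPM in Peyer's patch, against 110.3 and 65.3 CPM in spleen (log2 -0.58 ± 0.25, adjusted p = 0.184), and passed only without spleen ZsGreen+ replicate 2 (-0.93, adjusted p = 0.0248). Bbc3, the p53 target PUMA (chr7:16042318-16052130, plus strand, ENSMUSG00000002083), had 11.4 and 10.8 CPM, against 15.8 and 18.0 CPM (log2 -0.59 ± 0.30, adjusted p = 0.232). The effectors and the other BH3-only genes lay between -0.08 (Bak1) and 0.23 (Bax). Bid had a log2 value of -0.04 (adjusted p = 0.932).

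Proliferation markers were lower in Peyer's patch ZsGreen+ cells, 10 of 12 passing and none rising, with sums of 704 and 1212 CPM against 1968 and 2545 CPM in spleen ZsGreen+ cells. Of the Tfh markers 6 of 11 rose, of the naive T cell markers 4 of 6 fell and 1 rose, and of the regulatory T cell markers 3 of 6 fell and 2 rose. Of the 6 myeloid markers tested 2 rose and 1 fell, with sums of 35.9 and 31.1 CPM against 14.6 and 9.26 CPM. The mitochondrial share of counts was 4.76% and 4.53% in Peyer's patch ZsGreen+ libraries, against 2.81% and 3.19% in spleen ZsGreen+ libraries. B cell markers summed to 63.1 and 4.73 CPM in Peyer's patch ZsGreen+ cells, against 3.41 and 4.29 CPM in spleen ZsGreen+ cells, and 2 of the 7 tested rose (Pax5 and Blnk). The log2 differences of Bcl2l1 and Bcl2l11 within each experiment, given above, rest on 1 library per group. The part of proliferation, of B cell transcripts, of the other marker classes and of the mitochondrial share in these changes was not tested.

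Between the ZsGreen− sorts, Peyer's patch over spleen, none of the 10 genes passed in edgeR, beside 5.49% of all genes tested, but 7 had an unadjusted p below 0.05, as did 17.7% of all genes, and DESeq2 called 1, Pmaip1 (adjusted p = 0.0341), which also passed without library scaling (2.56e-09). All 10 had the same sign in both experiments, against 63.1% of all genes tested. These include Bcl2l11, at -0.02 in experiment 2, and Bak1, which had few counts there. Between the tissues in ZsGreen+ cells it was 7 of 10, against 71.0%. It was 8 of 10 in the Peyer's patch sort, against 53.6%, and 6 of 10 in the spleen sort, against 66.6%. In the difference of the sort effects it was 4 of 10, against 58.6%. Pmaip1 had 14.3 and 13.4 CPM in Peyer's patch ZsGreen− cells, against 28.6 and 98.6 CPM in spleen ZsGreen− cells (log2 -1.92 ± 0.61, adjusted p = 0.233). Bcl2 had 56.3 and 64.6 CPM in Peyer's patch, against 90.8 and 109.6 CPM in spleen (log2 -0.73 ± 0.25, adjusted p = 0.174; -0.69 and -0.76). Neither gene overlapped between the tissues, and Bcl2 passed without spleen ZsGreen+ replicate 1 (adjusted p = 0.0387) or 2 (0.032).

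Bbc3 had 10.8 and 9.42 CPM in Peyer's patch ZsGreen− cells, against 12.0 and 26.8 CPM in spleen ZsGreen− cells (log2 -0.84 ± 0.31, adjusted p = 0.168), and passed without spleen ZsGreen− replicate 1 (-1.41, adjusted p = 0.0123). Mcl1 had 399 and 341 CPM, against 489 and 561 CPM (log2 -0.50, adjusted p = 0.149), and Bcl2l1 24.0 and 22.0 CPM, against 31.2 and 30 CPM (-0.41, adjusted p = 0.281). All 3 survival genes had lower values in every Peyer's patch library than in either spleen library of this sort, with no call. The share of all genes tested that separated in this way was not counted, so no result about the survival genes is drawn from it. The median log2 fold change over the 10 genes was -0.47, and over all genes 0.00307. Proliferation markers fell for 4 of 12 and naive T cell markers for 4 of 6 in this sort, and their part was not tested. The tissue comparisons share libraries with the sort comparisons, so their values stand side by side and do not support one another.

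The effectors had no call between sorts or tissues, and differed much between experiments. Bax encodes the cytosolic pore-forming protein (chr7:45111121-45116322, minus strand, ENSMUSG00000003873). It had 118 and 269 CPM in Peyer's patch ZsGreen+ cells, 117 and 261 CPM in Peyer's patch ZsGreen− cells, 114 and 197 CPM in spleen ZsGreen+ cells and 89.8 and 247 CPM in spleen ZsGreen− cells. All 4 libraries of experiment 2 were above all 4 of experiment 1, and its fitted log2 fold changes in the 4 comparisons ran from 0.02 to 0.23. In spleen the fitted 0.02 between the sorts combines opposite directions, 0.35 in experiment 1 and -0.32 in experiment 2.

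Bak1 encodes the pore-forming protein resident in the mitochondrial membrane (chr17:27238784-27247983, minus strand, ENSMUSG00000057789). It had 83.8 and 1.58 CPM in Peyer's patch ZsGreen+ cells, 80.6 and 0.997 CPM in Peyer's patch ZsGreen− cells, 104 and 0.686 CPM in spleen ZsGreen+ cells and 100.1 and 1.07 CPM in spleen ZsGreen− cells. The estimated counts behind these were 1490, 1481, 1957 and 1871 in experiment 1 and 21, 9, 8 and 7 in experiment 2. Experiment 2 minus experiment 1 was -6.28 log2 units, the 5th lowest of the 14418 genes tested, whose gaps ran from -2.73 to 2.04 at the 5th and 95th percentiles. With 7 to 21 counts per library, a difference in Bak1 between sorts or tissues was not detectable in experiment 2 unless large, and the fitted values from -0.29 to 0.18 rest mainly on experiment 1. The cause of the gap was not tested. In GENCODE M21, 7.35% and 18.2% of the exon length of Bak1 overlap entries named Ggnbp1 on the opposite strand. Those entries averaged 15.3 and 8.65 estimated counts, and reads in the overlaps may belong to either gene.

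**Figure D3:**
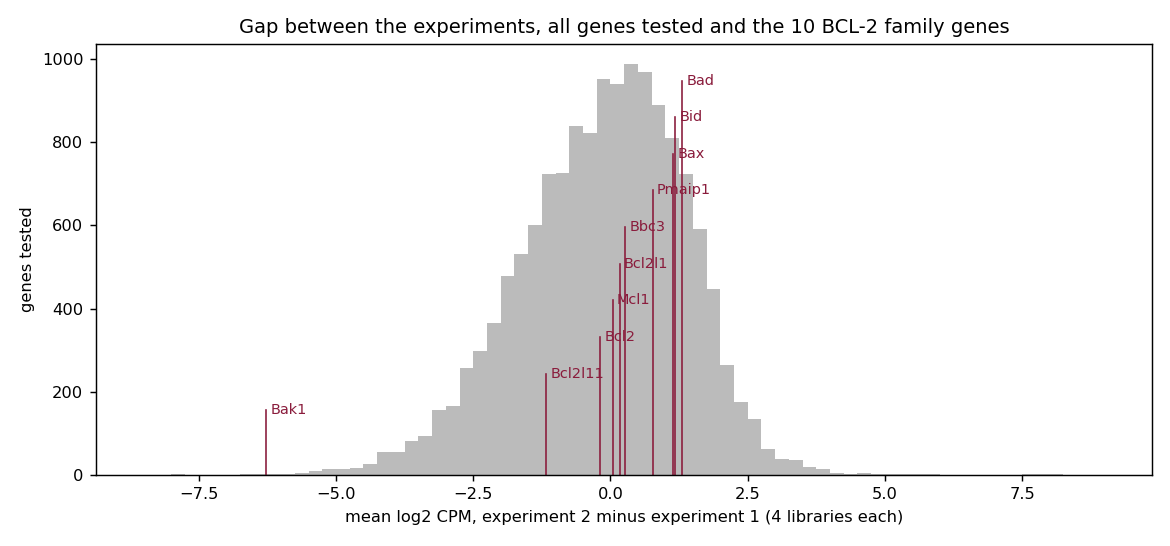
Histogram of the gap between the experiments for the 14418 genes tested (x axis, mean log2 CPM of the 4 libraries of experiment 2 minus that of experiment 1; y axis, number of genes), with a line for each of the 10 genes whose height only keeps the names apart. Bak1 lies at -6.28, and the other 9 lie between -1.17 (Bcl2l11) and 1.30 (Bad).

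The other members with a gap between experiments beyond 1 log2 unit were Bcl2l11 at -1.17, Bax at 1.15, Bid at 1.18 and Bad at 1.30, all within the range of most genes. Bad encodes a BH3-only protein silenced by growth factor phosphorylation (chr19:6919229-6929267, plus strand, ENSMUSG00000024959). It had 22.2 and 57.2 CPM in Peyer's patch ZsGreen+ cells, 20.7 and 52.2 CPM in Peyer's patch ZsGreen− cells, 24.3 and 50.5 CPM in spleen ZsGreen+ cells and 17.3 and 47.5 CPM in spleen ZsGreen− cells. Within an experiment its libraries were close, and its largest fitted value was 0.29 in spleen ZsGreen+ over ZsGreen− cells (adjusted p = 0.306). Of its exon length 20.5% overlaps Gpr137 on the opposite strand, which averaged 173 estimated counts against 461 for Bad.

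Ratios of estimated counts within a library do not depend on how libraries are scaled, though they still depend on gene length and experiment. Bcl2l11 stood at 1.35 and 0.951 times Bcl2 in spleen ZsGreen+ cells of experiments 1 and 2, against 0.744 and 0.224 times in spleen ZsGreen− cells. In Peyer's patch the ratio was 0.824 and 0.471 in ZsGreen+ cells, against 0.699 and 0.376 in ZsGreen− cells. It was thus higher in ZsGreen+ cells in both tissues and both experiments, as a description with no test. The log2 differences were 0.86 and 2.09 in spleen and 0.24 and 0.33 in Peyer's patch. In experiment 2 the log2 difference of Bcl2 itself was -0.75 in spleen and -0.41 in Peyer's patch. That of Bcl2l11 was 1.34 and -0.08, so in Peyer's patch the ratio rose there through lower Bcl2 and not through higher Bcl2l11.

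Relative to Mcl1, Bcl2l11 stood at 0.34 and 0.112 in spleen ZsGreen+ cells, against 0.138 and 0.0437 in spleen ZsGreen− cells. In Peyer's patch this ratio was 0.163 and 0.0747 in ZsGreen+ cells, against 0.0987 and 0.0711 in ZsGreen− cells, a log2 difference of 0.73 in experiment 1 and 0.07 in experiment 2. The ratio of Bcl2l11 to Bcl2l1, which changed in the same direction in spleen, was 3.13 and 1.07 in spleen ZsGreen+ cells, against 2.16 and 0.816 in spleen ZsGreen− cells. In Peyer's patch it was 4.44 and 1.23 in ZsGreen+ cells, against 1.64 and 1.1 in ZsGreen− cells, log2 differences of 1.44 and 0.17 beside 0.53 and 0.39 in spleen. The ratio of Bcl2l1 to Bcl2 was 0.431 and 0.887 in spleen ZsGreen+ cells, against 0.344 and 0.274 in spleen ZsGreen− cells. In Peyer's patch it was 0.186 and 0.382 in ZsGreen+ cells, against 0.426 and 0.341 in ZsGreen− cells, so the experiments differed in direction there. The tissue difference of its sort effect was nevertheless alike, at -1.52 and -1.53 log2 units in the 2 experiments.

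**Figure D4:**
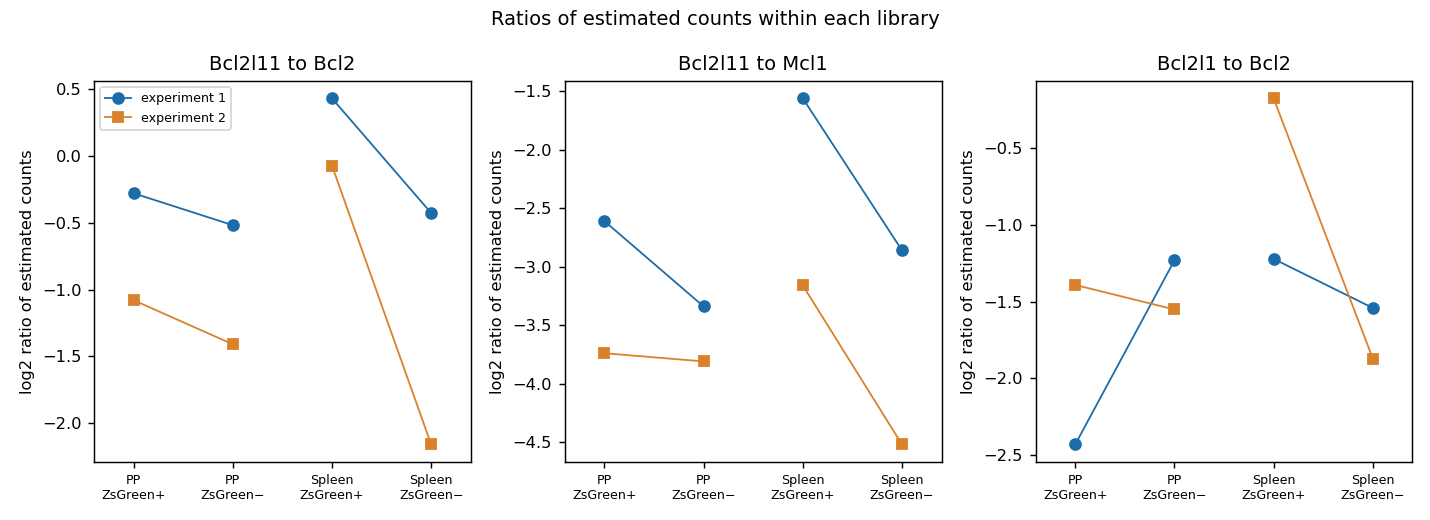
Log2 ratios of estimated counts (y axis) within each of the 8 libraries for Bcl2l11 to Bcl2, Bcl2l11 to Mcl1 and Bcl2l1 to Bcl2; circles are experiment 1, squares experiment 2, and lines join the sorts of a tissue (PP, Peyer's patch). The spleen ZsGreen+ libraries are the highest of their experiment in all 3 panels, and Bcl2l11 to Bcl2 is higher in ZsGreen+ than in ZsGreen− cells in each of the 4 pairs.

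Other genes of the pathway came from 6 fixed lists holding 84 tested genes. In spleen ZsGreen+ over ZsGreen− cells 4 rose and 4 fell, 9.52% beside 8.62% of all genes, and the median log2 fold change was -0.05 beside -0.03. Of 12 tested BCL-2 relatives 3 rose and none fell. Bik, a BH3-only gene whose protein sits at the endoplasmic reticulum, had 8.04 and 16.5 CPM in spleen ZsGreen+ cells, against 0.481 and 2.30 CPM in spleen ZsGreen− cells (log2 3.38 ± 0.41, adjusted p = 0.000514, called in all 8 fits that left out a library). The spleen ZsGreen− libraries held only 9 and 15 estimated counts of Bik, so the size of this fold change is uncertain. The groups did not overlap, and in Peyer's patch Bik had 4.72 and 10.8 CPM in ZsGreen+ cells, against 2.99 and 4.54 CPM in ZsGreen− cells.

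The A1 survival genes Bcl2a1a and Bcl2a1d also rose in spleen (log2 2.90 ± 0.53, adjusted p = 0.00616, and 1.05 ± 0.17, adjusted p = 0.0032), while Bcl2a1b had 0.39 ± 0.20 (adjusted p = 0.293). These 3 are near-identical copies whose reads the counting may have divided among them, so their separate values are uncertain, and the Bcl2a1a call was lost without spleen ZsGreen+ replicate 2 (0.0842). Bcl2a1a also had only 4.68 and 11.3 estimated counts in the spleen ZsGreen− libraries. Bcl2l2, the survival gene for BCL-w, and Bmf, a BH3-only gene, missed the threshold at low levels (log2 1.17 and -1.32, adjusted p = 0.195 and 0.28).

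Among the 13 death receptor genes Ripk3, a kinase of necroptosis, rose (0.79, adjusted p = 0.00541) and Fas, the receptor for FasL, fell (-0.57, adjusted p = 0.0346). Of the 12 p53 pathway genes Trp53inp1 fell (-0.83, adjusted p = 0.0134). Of the 18 genes of cytokine survival signalling both IL-6 receptor chains fell, Il6st with a log2 value of -1.73 (adjusted p = 0.000309) and Il6ra with -1.46 (adjusted p = 0.00825). The Il6st call held in all 8 fits that left out a library. That of Ripk3 was lost without replicate 2 of spleen ZsGreen+ or ZsGreen− cells (adjusted p up to 0.0977) and that of Il6ra without either spleen ZsGreen+ library (up to 0.0638). The Fas call was lost without spleen ZsGreen+ replicate 2 or either spleen ZsGreen− library (up to 0.41), and that of Trp53inp1 without either spleen ZsGreen+ library or spleen ZsGreen− replicate 2 (up to 0.141). None of 16 caspase, apoptosome and IAP genes and none of 13 regulators of BCL-2 proteins passed in edgeR, with 0 and 2 at an unadjusted p below 0.05, as had 21.9% of all genes.

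In Peyer's patch ZsGreen+ over ZsGreen− cells none of the 84 passed, with 8 at an unadjusted p below 0.05, as had 8.13% of all genes, and in the difference of the sort effects none passed, with 13, as had 8.48% of all genes. Between the ZsGreen+ sorts, Peyer's patch over spleen, 7 rose and 10 fell, 20.2% beside 12.7% of all genes. Of the 13 death receptor genes 5 fell and 1 rose: the TNF receptor gene Tnfrsf1b had a log2 value of -1.75, Fasl -1.67 and Tnfsf10, the gene for TRAIL, -1.28 (adjusted p = 0.000267, 0.00104 and 0.00862), while Fas rose with 0.96 (adjusted p = 0.00126).

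Of the cytokine genes 3 fell and 2 rose. Il7r, the receptor chain through which IL-7 keeps T cells alive, had 23.4 and 9 CPM in Peyer's patch ZsGreen+ cells, against 104.7 and 53.3 CPM in spleen ZsGreen+ cells (log2 -2.37 ± 0.31, adjusted p = 0.00236), a call lost without either Peyer's patch ZsGreen+ library. Il2rb and Il2rg fell with log2 values of -0.98 and -0.88 (adjusted p = 0.00228 and 0.0116), and Il6st rose with 1.71 (adjusted p = 0.000164). Of the 12 p53 pathway genes 2 rose, Trp53inp1 with 1.15 and Zmat3 with 0.78 (adjusted p = 0.00115 and 0.00926), and none fell. The median log2 fold change of the 12 was 0.14, and 5 had an unadjusted p below 0.05. Without a call, Ei24 was higher at 0.39 (adjusted p = 0.081). Mdm2 and Cdkn1a were lower at -0.51 and -1.20 (adjusted p = 0.0546 and 0.114), also without a call. The members Pmaip1 and Bbc3, themselves p53 targets, had -2.15 and -0.59, again without a call (adjusted p = 0.113 and 0.232). Whether p53 had a part in any of these values was not tested. Bnip3, a hypoxia-induced BH3-like gene of mitophagy, rose with 1.43 (adjusted p = 0.00567) and Bcl2a1a fell with -1.55 (adjusted p = 0.0489), and Birc3, an IAP gene, fell with -0.71 (adjusted p = 0.0329). In the fits that left out a library the calls of Tnfrsf1b, Fasl, Fas, Trp53inp1, Il6st and Il2rb held in 8 of 8. The others were lost in at least 1, in each case without a Peyer's patch ZsGreen+ or spleen ZsGreen+ library, at adjusted p up to 0.0712 for Il7r and up to 0.372 for Birc3. Birc3 was also lost without either Peyer's patch ZsGreen− library.

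Between the ZsGreen− sorts 3 of the 84 rose and 3 fell, 7.14% beside 5.49% of all genes. Bik (1.76, adjusted p = 0.0323), Bcl2a1d (0.87, adjusted p = 0.0119) and Fas (0.70, adjusted p = 0.0157) were higher in Peyer's patch, and Tnfrsf1b (-1.51, adjusted p = 0.00136), Il2rb (-0.89, adjusted p = 0.00864) and Il6ra (-1.07, adjusted p = 0.0372) were lower. For Bik the spleen ZsGreen− libraries held only 9 and 15 estimated counts. Only the Tnfrsf1b call held in all 8 fits that left out a library. The other 5 were each lost without 1 or both Peyer's patch ZsGreen− libraries, at adjusted p up to 0.125 for Il2rb and up to 0.34 for Il6ra. Fas, Tnfrsf1b and Il2rb passed in the same direction in both sorts, with CPM for Fas of 46.5 and 217 in Peyer's patch ZsGreen− cells against 29.3 and 132 in spleen ZsGreen− cells.

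For each of the 4 members with a call, the tested genes whose profile over the 8 libraries was most alike were found by the root mean square difference of log2 CPM, after each gene was centred on its own mean within each experiment. Nearest to Bcl2l11, whose own spread on this scale was 0.651, were Tamalin (0.0994), Ticrr (0.102) and Stk24 (0.134). For Bcl2l1 (0.657) they were Raver2 (0.147), Slc2a3 (0.156) and Atxn1 (0.197). For Bid (0.403) they were Prickle1 (0.0881), Acot2 (0.094) and Mov10 (0.0968), and for Mcl1 (0.309) they were Pnpla2 (0.0757), Gm13422 (0.0765) and Osbpl9 (0.0786). Bcl2l11 and Bcl2l1 had none of these neighbours in common.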

How the data were processed

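Bulk RNA-seq of 8 sorted Tfh libraries was used. The deposited raw tables hold estimated counts per gene (17.6% to 29.9% of a library's values lay over 0.01 from a whole number). The deposited normalized tables hold a signal, which equals these counts times 1 constant per library (relative deviation up to 9.22e-06, factors 0.7653 to 1.575), which the authors set per experiment. The submitters' processing notes name Partek, STAR, DESeq2 and mm39; their versions were not given in the sources used here.

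Estimated counts were rounded. The tables hold 18114 and 20397 genes; filterByExpr (minimum count 10, total 15) kept 14418 of the 16735 in both and removed 2317. edgeR 4.0.16 in R 4.3.3 fitted TMM-scaled counts (factors 0.6558 to 1.236) with 4 group means and an experiment term, leaving 3 residual degrees of freedom, which robust moderation across genes adds to. Adjusted p-values are from its two-sided quasi-likelihood F test, Benjamini-Hochberg over all genes tested, threshold 0.05; the standard error (SE) comes from the F statistic. Log2 differences within an experiment and gaps between experiments use log2 CPM with a prior count of 2 and have no test. The fit was tested on simulated data, where false calls made up more of the calls than the threshold sets and part of the changed genes were missed.

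Replicate numbers pair the libraries, since the labels tie them to an experiment; deviations from group means of same-numbered libraries correlated across genes at r = 0.825 to 0.867 over 6 pairs of groups. Alternatives were RLE or no scaling, DESeq2 1.42.0, no filter or a minimum count of 30, no experiment term, limma 3.58.1 on log2(signal + 1), and leaving out each library; those for pathway genes other than the members were chosen after seeing the data. Exon lengths and overlaps came from GENCODE M21 by gene ID and promoters from RefSeq GRCm38.p6, builds other than that of the files.

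The members and lists were chosen with earlier results of these data known. All members are named. Of each pathway list, at most the 4 genes of smallest p among those called per comparison are named. Bcl2a1a, Bcl2a1b, Bcl2a1d, Bcl2l2, Bmf, Ei24, Mdm2 and Cdkn1a are named as well. Markers are given as counts and sums. Some items are not reported here. Single markers, Bcl2l13, Ei24, Mdm2 and Cdkn1a were named after their values were seen.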

Additional observations from a re-analysis of the deposited data

Results flagged for a closer look

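For Bcl2l1, the log2 difference between the ZsGreen sorts in Peyer's patch minus that in spleen was -1.35. It drew attention because in both experiments ZsGreen+ cells had less Bcl2l1 than ZsGreen− cells in Peyer's patch and more in spleen. The difference itself was tested in edgeR and missed the threshold (adjusted p = 0.0991).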

How the results depend on the processing

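No called value changed sign under any alternative. Of all values, called or not, 17 of 350 changed sign under the settings other than leaving out a library, and 42 of 400 when a library was left out. All of these sign changes were among values with no call. Of the 10 genes, the spleen sort comparison called 3, the ZsGreen+ tissue comparison 3 and the other comparisons 0. Without the replicate block (no term for the experiment) edgeR called 0 of the 10 and 0 of all genes in every comparison. DESeq2 called 0 in the Peyer's patch sort comparison, 3 in spleen, 1 in the difference of sort effects, 4 between ZsGreen+ tissues and 1 between ZsGreen− tissues. With no scaling the difference of sort effects and the ZsGreen− tissue comparison each called 1, and with no filter the difference of sort effects called 1. Leaving out a library gave 1 to 3 in the spleen sort, 0 to 1 in the difference, 2 to 3 between ZsGreen+ tissues, 0 to 1 between ZsGreen− tissues and 0 in the Peyer's patch sort.

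Over all genes, the counts were 63, 1243, 14, 1828 and 792 in the order Peyer's patch sort, spleen sort, difference, ZsGreen+ tissues and ZsGreen− tissues. DESeq2 gave 143, 1460, 141, 2063 and 1074, and no filter gave 47 for the difference. No scaling gave 170, 1263, 113, 1882 and 986, and moved the median log2 fold change to 0.113, 0.111, 0.143 and 0.163 in the 2 sort and 2 tissue comparisons, against -0.03 to 0.02 with TMM. Its calls were 852 up and 411 down in the spleen sort (653 and 590 with TMM), 55 and 58 in the difference (4 and 10), 1009 and 873 between ZsGreen+ tissues (794 and 1034) and 454 and 532 between ZsGreen− tissues (262 and 530). Leaving out a library gave 7 to 88, 487 to 1357, 2 to 93, 863 to 1965 and 313 to 893. With 2 libraries a group and 3 residual degrees of freedom, a missed threshold does not show equal levels, and for Bak1 experiment 2 held too few counts to compare groups.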
